A study of Oryzias latipes with 84 samples.

Results

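In pituitaries of female medaka, 100 genes were singled out because their expression followed that of lhb, the gene of the β-subunit of luteinizing hormone (Lh), more closely than that of 6 marker genes of other cell types. They were taken from the 24364 entries of a bulk RNA-seq count table, of which 24363 are Ensembl genes and the remaining 1 is the GFP transgene. A gene was a candidate when its median in 68 females was at least 5 CPM (counts of a gene scaled to a library total of 1000000), which left 15009 genes after the hormone genes, the marker genes and a few others had been set aside. Each candidate was assigned to that one of 7 marker genes with which its Spearman rank correlation (rho) over the females was highest. These were lhb, crhbp (melanotropes), prl (lactotropes), gh (somatotropes), tshba (thyrotropes), hbbe2 (a globin of red blood cells) and CD74 (the invariant chain of MHC class II, of antigen-presenting cells). Of the candidates, 2481 were assigned to lhb, and the 100 of these with the highest rho were kept. They are called the lhb-tracking genes here and are numbered from rank 1 (highest rho) to rank 100. Since female values chose them, their levels in females are described without a test, and tests were run in the 16 males, which took no part in the choice.

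Lh is one of the gonadotropins, the hormones by which the pituitary drives the gonads. It consists of a β-subunit of its own, encoded by lhb, and an α-subunit encoded by cga, which it shares with follicle-stimulating hormone (Fsh, β-subunit fshb) and thyrotropin. In teleosts, Lh and Fsh are largely made by separate gonadotrope cells, and the Lh-producing cells increase in number and output as the fish mature sexually. The nuclear receptor encoded by nr5a1b is a regulator of gonadotropin genes, and gnrhr2 encodes a receptor for the hypothalamic hormone Gnrh, which stimulates gonadotropes.

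Each of the 84 libraries was made from the pituitary of 1 fish of the d-rR lhb:GFP line, in which the lhb promoter drives a green fluorescent protein, so that all fish, of both sexes, carried this transgene and no group was treated. The females fell into 10 age groups of 32–35, 37–39, 44–49, 53–59, 64–74, 79–92, 96–111, 131–179, 249–277 and 375 days post-fertilization (dpf), with 4, 4, 8, 9, 10, 10, 11, 6, 3 and 3 fish. The males fell into 4 groups of 38, 57, 70 and 134 dpf with 4 fish each. The libraries held between 2424546 and 9348785 counts each (median 6493890). Body length ranged from 9.5 to 29 mm in females and from 12 to 28 mm in males, and the RNA integrity number, a measure of RNA degradation known for 57 of the females and all males, from 6.8 to 10. In a whole pituitary, fewer cells of a type and less RNA per cell cannot be told apart.

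No gene symbol could be paired with any of the 100 genes in the sources used here, so that they are given by rank, with an Ensembl identifier for the 4 that the results turn on. ENSORLG00000016288 is rank 1 and ENSORLG00000006155 is rank 2. ENSORLG00000002804 is rank 50 and ENSORLG00000002818 is rank 42, and these had the lowest differences between males of 134 and 38 dpf. CPM are not scaled to gene length, and levels were therefore not compared between genes.

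The rho of the lhb-tracking genes with lhb ranged from 0.667 to 0.870 over the 68 females, with a median of 0.71, against a median of −0.02 over all 15009 candidates. At the lower limit of the choice there was no step, as ranks 98, 99 and 100 had rho of 0.667 or 0.668 and the next 3 candidates 0.666 or 0.667. For 98 of the 100 genes the marker with the next highest rho was CD74, and for the other 2 it was tshba. The margin of lhb over the next marker had a median of 0.22 and ranged from 0.0046 (rank 94) to 0.34 (rank 50). The CD74 level was itself related to lhb in these females (rho 0.69, and 0.76 without medaka7, a female of 79 dpf). Its median was 934 CPM in the 12 females of 131 to 375 dpf and 271 CPM in the 8 females of 32 to 39 dpf. Its part in the choice of the genes was not tested. The median level of the lhb-tracking genes in females lay between 6.16 and 496 CPM, with 4 genes under 10 CPM and 39 at 100 CPM or more, and in the females 1 of the genes had a count of 0 in at least 1 library.

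The lhb level itself increased with age in the females, as described here without a test. The 4 females of 32–35 dpf had 287, 189, 113 and 125.6 CPM, and the 4 of 37–39 dpf had 310, 283, 272 and 331 CPM. The 3 of 249–277 dpf had 6428, 11872 and 4939 CPM and the 3 of 375 dpf had 7871, 3604 and 5187 CPM, so that these old fish all lay far above the young ones. Between these ages the spread within a group was wide, from 48.1 CPM in the lowest through a median of 1816 CPM to 5390 CPM in the highest of the 10 females of 79–92 dpf. The lowest of these was medaka7, and the next lowest fish had 232 CPM.

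ENSORLG00000016288, rank 1 with a rho of 0.87, followed the same course over a wider range. The 4 females of 32–35 dpf had 38.4, 12.1, 23.3 and 21.5 CPM and the 4 of 37–39 dpf had 27.7, 17.6, 36.4 and 38.9 CPM. In the females of 96–111 dpf the lowest, median and highest values were 25.7, 208 and 442 CPM, and in those of 131–179 dpf they were 352, 620 and 1084 CPM. The 3 females of 249–277 dpf had 896, 844 and 832 CPM and the 3 of 375 dpf had 1011, 939 and 1004 CPM. Every female from 131 dpf on thus lay above every female up to 39 dpf, as the choice on female values favoured. Its median was 838 CPM in the 12 females of 131 to 375 dpf and 25.5 CPM in the 8 females of 32 to 39 dpf, a difference of 4.98 on the log2(CPM + 1) scale, the largest among the 100 genes. For lhb that difference was 4.18, for cga 3.56, for fshb 3.35, for the GFP cassette 2.58 and for nr5a1b 1.69, whereas gnrhr2 had a difference of −0.34.

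ENSORLG00000006155, rank 2 with a rho of 0.87, changed over a narrower range. The females of 32–35 dpf had 8.46, 11.9, 7.65 and 7.11 CPM and those of 37–39 dpf 9.15, 16.6, 24.5 and 20.6 CPM. The 6 of 131–179 dpf had between 34.1 and 126.8 CPM with a median of 77.5 CPM, the 3 of 249–277 dpf 70.4, 120.3 and 94.98 CPM, and the 3 of 375 dpf 59.97, 59.77 and 60.34 CPM. Its difference between females of 131 to 375 dpf and those of 32 to 39 dpf was 2.53 on the log2(CPM + 1) scale. Its values from 131 dpf on again lay above those up to 39 dpf in every fish, as the choice favoured.

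**Figure D1:**
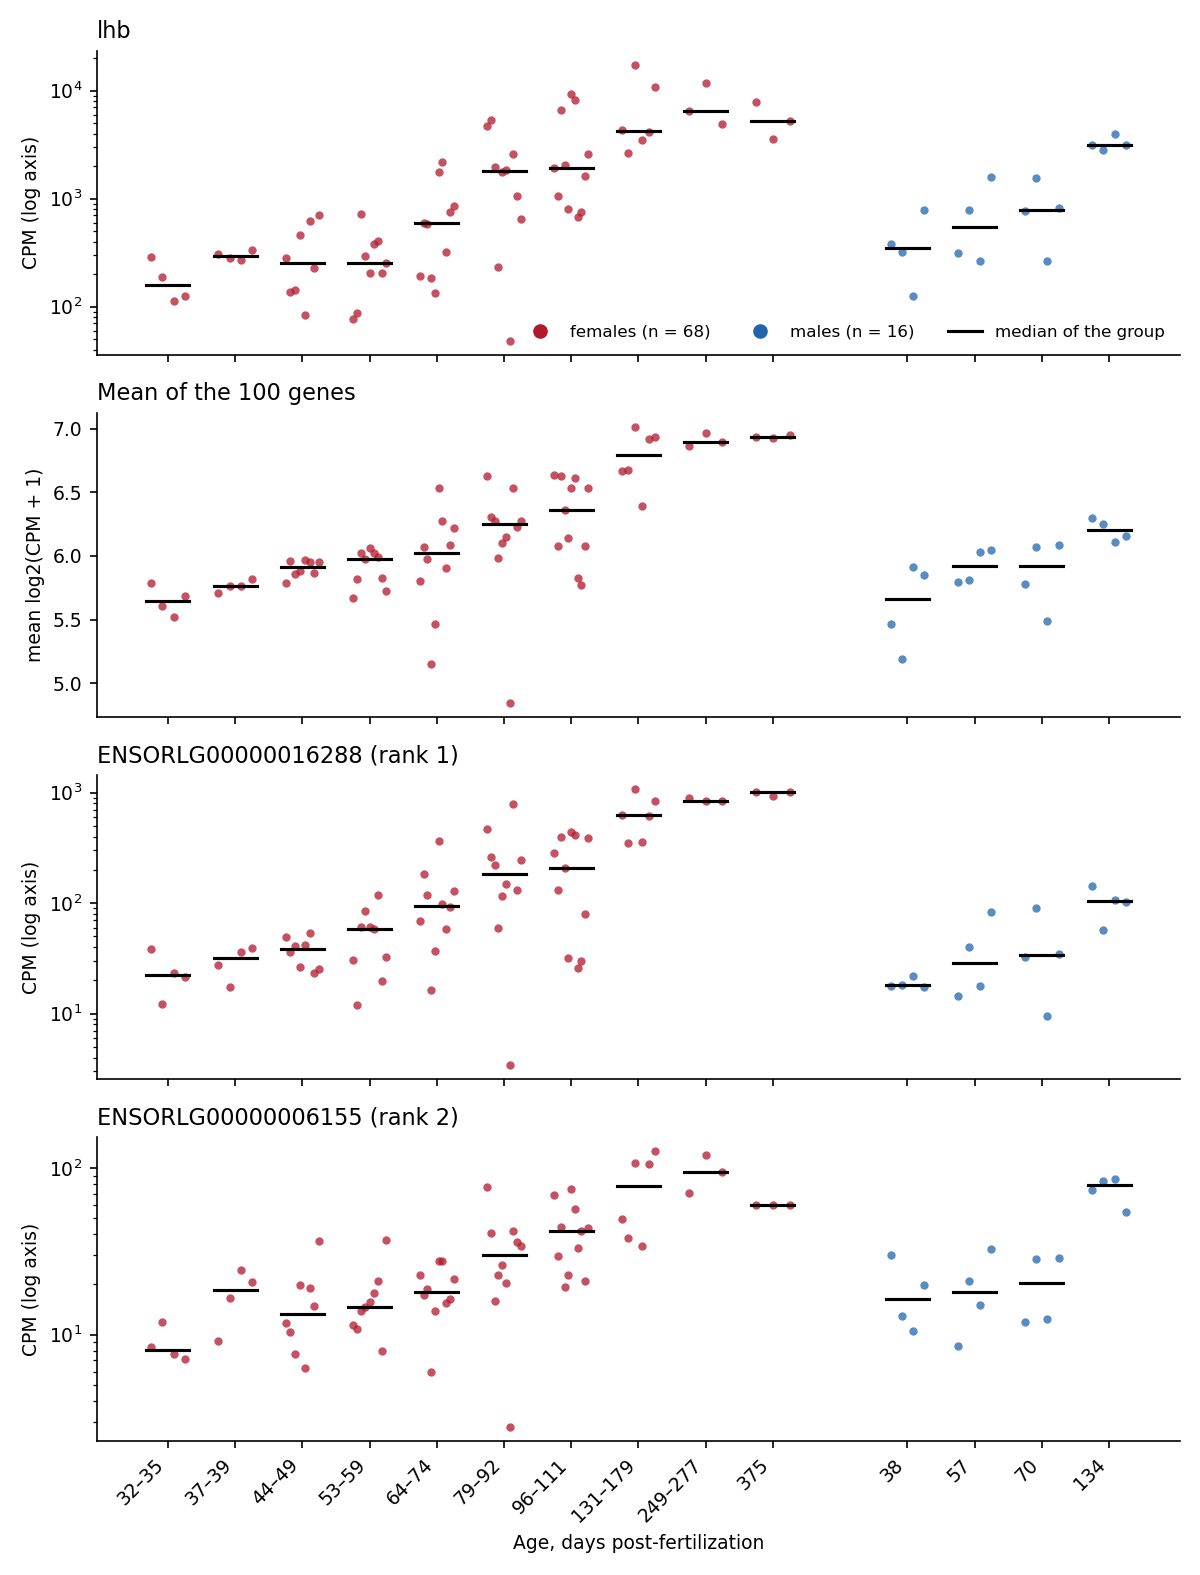
Levels in each of the 84 pituitaries by age in days post-fertilization, with females on the left and males on the right. Panels show lhb, the mean log2(CPM + 1) of the 100 lhb-tracking genes, and the genes of rank 1 and 2 in CPM on log axes, with 1 point per fish and a bar at the median of its group. The lhb median was 5187 CPM in females of 375 dpf and 157 CPM in females of 32–35 dpf, and the mean of the genes had medians of 6.93 and 5.64 in the same groups.

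All 100 lhb-tracking genes had a higher median in females of 131 to 375 dpf than in females of 32 to 39 dpf, as the choice favoured (64.7% of all candidates did). The difference ranged from 0.33 (rank 96) to 4.98 (rank 1) on the log2(CPM + 1) scale, with a median of 1.00, against 0.16 over all candidates. It was at least 1 in 50 genes and at least 2 in 10 genes. Together the 100 genes took up 1.88% of all counts at the median of the 375 dpf females and 0.905% at that of the 32–35 dpf females.

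Other genes with wide ranges were ranks 15, 28, 3, 9 and 94. Rank 15 had 16.6, 26.9 and 27.8 CPM in the females of 375 dpf, against 4.99, 4.52, 3.10 and 1.35 CPM in those of 32–35 dpf. Rank 28 had 273, 231 and 290 CPM at 375 dpf, against 35.2, 29.5, 59.7 and 13.8 CPM at 32–35 dpf. Rank 3 had 981, 468 and 813 CPM at 375 dpf, against 215, 50.6, 120.9 and 99.4 CPM at 32–35 dpf. In none of these did the oldest and the youngest group overlap, as the choice on female values and the pick of wide ranges favoured. The share over all candidates was not examined. Rank 9 stayed at group medians from 5.88 to 8.12 CPM up to 64–74 dpf, had 12.7 and 13.2 CPM in the next groups, and lay between 31.0 and 49.3 CPM in every female of 131–179 dpf. Rank 94 had group medians from 4.44 to 5.59 CPM up to 64–74 dpf and 8.3 CPM in the next groups, and then 26.6, 32.4 and 50.7 CPM in the 3 oldest groups. For ranks 9 and 94 most of the range thus lay between 96–111 and 131–179 dpf and later.

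The course was not even over time. From one age group to the next, the most uniform steps were between 131–179 and 96–111 dpf and between 79–92 and 64–74 dpf. In the first, 99 of the 100 genes had a higher median in the older group, against 69.3% of all candidates (median differences 0.40 and 0.15). In the second 97 did, against 24.3% of all candidates (median differences 0.19 and −0.15). Between 53–59 and 44–49 dpf 55 genes were higher and 45 lower, where 39.2% of all candidates were higher. Between 375 and 249–277 dpf 54 were higher and 46 lower, where 42.1% of all candidates were higher. The medians were 0.01 and 0.02 for the 100 genes, against −0.06 and −0.05 for all candidates. These are differences of group medians on the log2(CPM + 1) scale with no test. The mean log2(CPM + 1) of the 100 genes had group medians of 5.64, 5.76, 5.92, 5.97, 6.02, 6.25, 6.36, 6.80, 6.90 and 6.93 from the youngest to the oldest females, and 1 female of 79 dpf (medaka7) lay far below its group at 4.85. This fish measured 10.5 mm, had an RNA integrity number of 7.7 and an lhb level of 48.1 CPM, the lowest of the series, and without it 91 of the 100 genes would have been chosen again.

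**Figure D2:**
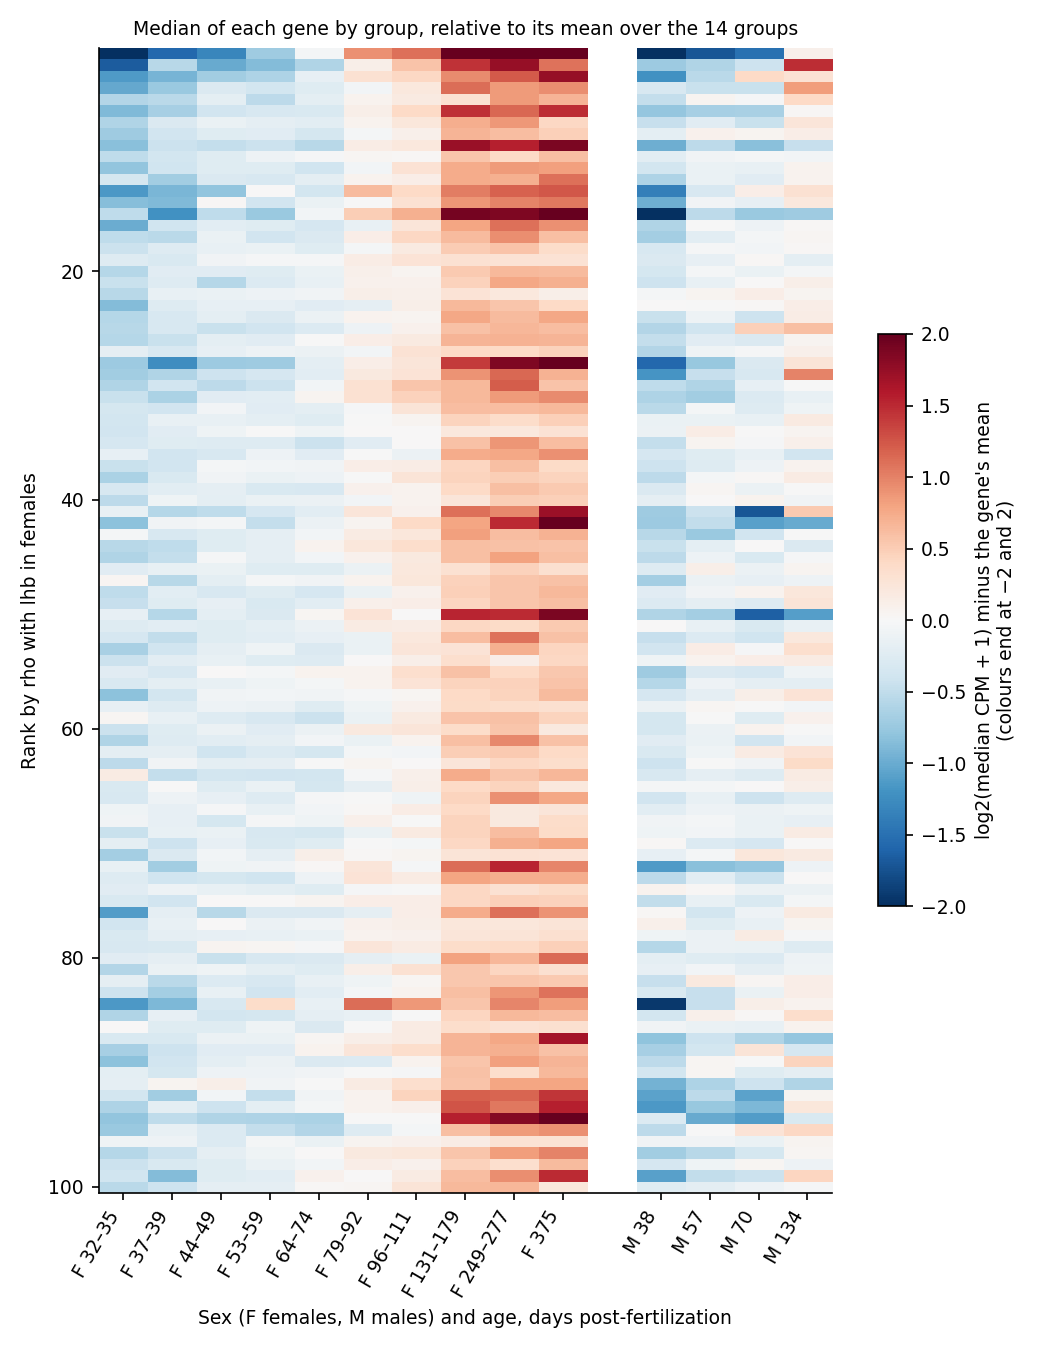
Median level of each lhb-tracking gene in each group of females (F) and males (M) by age, as log2(median CPM + 1) minus the mean of that gene over the 14 groups. Each line of the map is 1 gene, from rank 1 at the top to rank 100. The step between females of 96–111 and 131–179 dpf, where 99 of 100 genes (69.3% of all candidates) had the higher median in the older group, is visible across the ranks. Males of 134 dpf are paler than females of 131–179 dpf in most lines.

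In females the genes followed body length and cga about as closely as lhb, by the size of rho. The median rho of the 100 genes was 0.71 with lhb, 0.75 with cga, 0.73 with body length, 0.69 with nr5a1b, 0.63 with age, 0.63 with the GFP cassette and 0.61 with fshb (all over 68 females), and 0.09 with gnrhr2. The lhb level itself had a rho of 0.22 with gnrhr2. For 66 genes rho with cga exceeded that with lhb, for 47 rho with body length did, for 29 that with nr5a1b and for 6 that with fshb. The genes had been chosen on lhb, and these counts were not tested. Over all candidates the median rho was −0.02 with lhb, −0.0038 with cga, 0.08 with body length, 0.04 with nr5a1b and −0.05 with fshb. How many of all candidates had a higher rho with these measures than with lhb was not counted. Rank 84 had a rho of 0.91 with fshb and 0.68 with lhb. Rank 73 had 0.88 with nr5a1b and 0.69 with lhb. For the mean of the genes, rho was 0.92 with body length, 0.91 with cga, 0.91 with lhb and 0.80 with age. The lhb level in turn had a rho of 0.83 with body length and 0.80 with age, so that these measures could not be told apart over the whole series. The median rho of the 100 genes was −0.18 with crhbp, −0.22 with prl and −0.25 with pomca (the precursor of Acth and α-Msh). Over all candidates these medians were −0.12, −0.22 and −0.15. With tshba the median of the 100 genes was 0.33, with gh 0.21 and with smtla (the gene of somatolactin) 0.07. The medians over all candidates were −0.01, −0.17 and −0.08 there. Values of a fish come from 1 library and share its depth and composition. The median rho of the 100 genes with the library total was −0.05, against −0.20 over all candidates. With the share of counts in hormone genes it was −0.08, against −0.29 over all candidates. The RNA integrity number moved with the genes (median rho 0.46 over the 57 females where it is known, and 0.60 with the mean of the genes), and its part in the relation was not tested. Among the 40 females with an RNA integrity number of at least 9, 76 of the 100 genes would have been chosen again.

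Within narrower ages the relation with lhb differed between groups. Over the 31 females of 64 to 111 dpf the median rho of the genes was 0.68 with lhb, 0.55 with body length and 0.30 with age. The medians over all candidates were −0.225, −0.01 and −0.17. All 100 genes had a higher rho with lhb than with age, as the choice on lhb favoured. Within single age groups the median rho with lhb was −0.02 in the 8 females of 44–49 dpf, 0.325 in the 9 of 53–59 dpf, 0.80 in the 10 of 64–74 dpf, 0.55 in the 10 of 79–92 dpf, 0.67 in the 11 of 96–111 dpf and 0.54 in the 6 of 131–179 dpf. Over all candidates these medians ran from −0.31 to −0.03. When the mean rank of each age group was taken off, the genes kept a positive rho with lhb, with a median of 0.51 and a range from 0.14 (rank 94) to 0.72 (rank 1), and 60 of the 100 genes would have been chosen again. In the same 64 to 111 dpf females the mean of the genes had a rho of 0.75 with the RNA integrity number (27 fish) and 0.25 with CD74. With other hormone genes its rho was 0.69 for gh, 0.61 for tshba, 0.40 for smtla, 0.06 for prl and 0.05 for pomca. The rho of this mean was 0.40 with the library total and 0.23 with the share of counts in hormone genes, and that of lhb was 0.47 and 0.43. The part of these measures in the relation was not tested.

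The genes were also related to each other. The 4950 pairs had rho from 0.23 to 0.93 over the females, with a median of 0.66, as the choice by a common relation to lhb favours. Ranks 59 and 86 and ranks 1 and 6 formed the closest pairs, each at 0.93. In the 16 males the same pairs of genes had rho from −0.66 to 0.93 with a median of 0.33, and 4243 of them were positive. Pairs of other genes were not examined, so that how far these values differ from those of genes in general is not known. The pair of ranks 59 and 86 had 0.71 there and that of ranks 1 and 6 had 0.61.

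**Figure D3:**
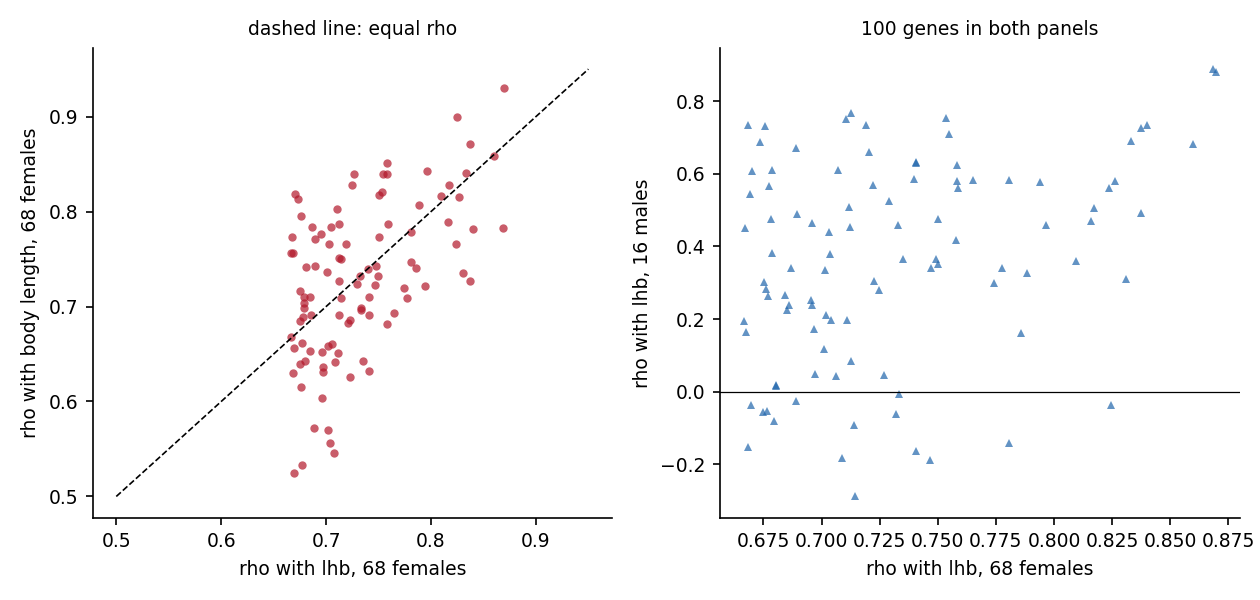
Spearman rho of each lhb-tracking gene with lhb over the 68 females (x axis of both panels) against its rho with body length in the same females (left) and its rho with lhb in the 16 males (right). The dashed line marks equal rho, and 47 genes lie above it. In males the points spread from −0.29 to 0.89, with ranks 1 and 2 at the top right.

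Whether the genes followed lhb in fish that had not been used to choose them was examined in the 16 males. The lhb level ranged from 125.4 to 777 CPM in the 4 males of 38 dpf, from 266 to 1597 CPM at 57 dpf and from 265 to 1545 CPM at 70 dpf, and it was 3162, 2833, 3987 and 3106 CPM in the 4 males of 134 dpf. All males of 134 dpf lay above all younger ones. The slope of each gene on log2 lhb was tested with the quasi-likelihood test of edgeR over all genes with enough counts, and all 100 lhb-tracking genes were among these. Just 2 of 19501 genes passed at an adjusted p under 0.05 (0.0103%), both higher with higher lhb, and these were ranks 1 and 2. In simulated counts this fit found 3 of 100 genes changed 2-fold over the range of lhb and 50 of 100 changed 4-fold, and 6 of its 59 calls were false (10.2%). The spread of the simulated counts was that within age groups, whereas the slope fit has no age term. The share found in the real counts can therefore be lower.

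ENSORLG00000006155 (rank 2) had 29.9, 12.9, 10.5 and 19.7 CPM in the males of 38 dpf, 8.56, 20.9, 15.0 and 32.7 CPM in those of 57 dpf, 12.0, 28.6, 12.4 and 28.8 CPM in those of 70 dpf and 74.0, 83.2, 86.5 and 54.2 CPM in those of 134 dpf. All 4 males of 134 dpf were above the 12 younger ones. Its slope was 0.62 log2 units per log2 unit of lhb (SE 0.077, adjusted p = 0.00174, edgeR), with a rho of 0.89.

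ENSORLG00000016288 (rank 1) had 18.0, 18.3, 21.7 and 17.3 CPM in the males of 38 dpf, 14.3, 40.1, 17.8 and 83.2 CPM in those of 57 dpf, 32.7, 90.4, 9.52 and 34.7 CPM in those of 70 dpf, and 142.4, 57.4, 105.8 and 103.3 CPM in those of 134 dpf. The highest males of 57 and 70 dpf, which had the highest lhb of their groups, overlapped with the lowest male of 134 dpf. Its slope was 0.68 (SE 0.086, adjusted p = 0.00174, edgeR), with a rho of 0.88.

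Both calls stood in each of the 16 fits that left out 1 male, in which the adjusted p was at most 0.0173. A permutation test of the Spearman rho (two-sided, 100000 permutations, p = 2e-05 for both, where the smallest value they can give is 1e-05, adjusted p = 0.039 over all genes tested) called the same 2 lhb-tracking genes, among 4 genes with a positive (0.0205%) and 9 with a negative rho in all. With age group as a further term the slopes were 0.67 for rank 1 and 0.52 for rank 2, but neither passed (adjusted p = 0.889, edgeR) and neither did any other gene. In that fit 10 lhb-tracking genes had an unadjusted p under 0.05 with a positive slope and 0 with a negative one, against 282 and 676 of all genes. DESeq2 without the age term called 7 lhb-tracking genes, all positive, where it called 87 genes with a positive (0.446%) and 195 with a negative slope in all.

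Most of the other lhb-tracking genes had positive slopes in males that did not pass the test. Of the 100 slopes 87 were positive and 13 negative, with a median of 0.10 and a range from −0.34 (rank 94) to 0.68, whereas the median over all genes was −0.02 and 44.7% were positive. At an unadjusted p under 0.05 there were 23 lhb-tracking genes with a positive slope and 0 with a negative one, against 1062 and 1777 of all genes. The third smallest p belonged to rank 29, with a slope of 0.48 (SE 0.096, adjusted p = 0.119). The male rho with lhb had a median of 0.37 (0.03 over the candidates), and 85 of the 100 were positive (52.6% of the candidates). ENSORLG00000002804 (rank 50) stood at the other end with a rho of −0.29 in males, against 0.71 in females, and a slope of −0.17 (SE 0.15, adjusted p = 0.61).

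**Figure D4:**
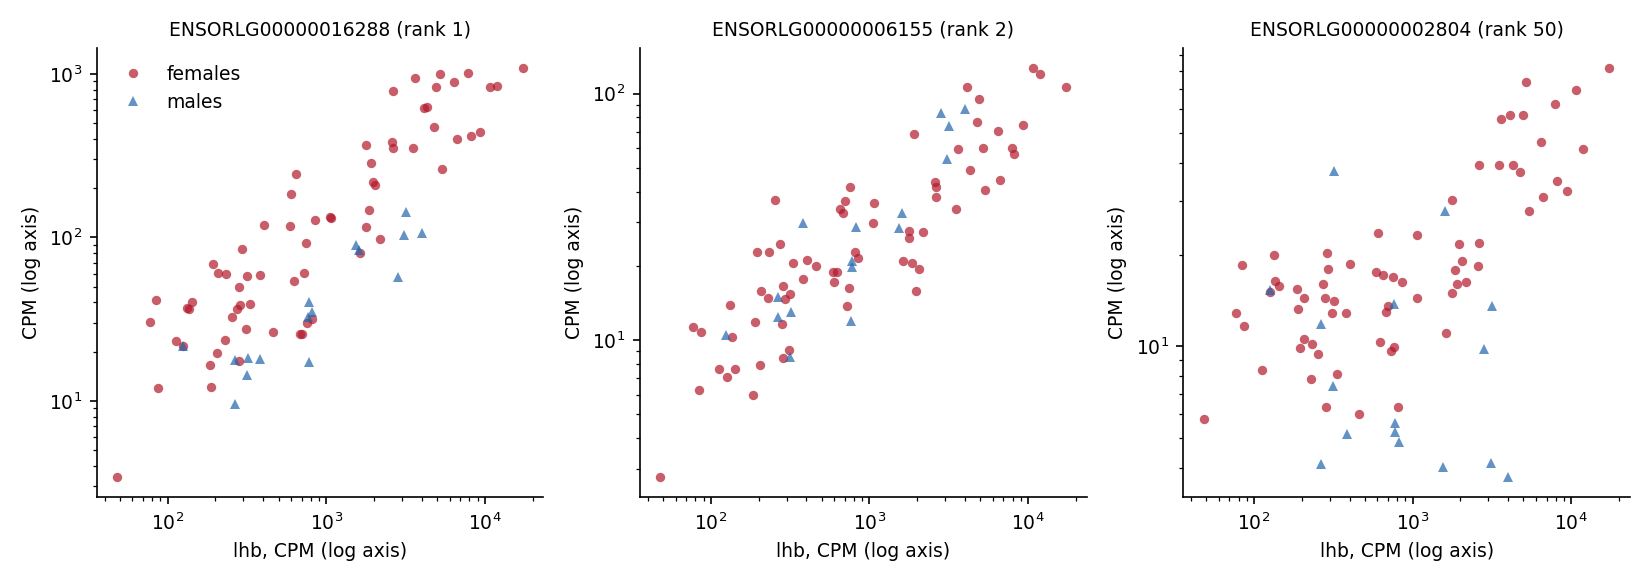
CPM of the genes of rank 1, 2 and 50 against lhb CPM in each female (circles, n = 68) and each male (triangles, n = 16), on log axes. For rank 1 males lie below females of similar lhb in the upper range, for rank 2 the sexes overlap, and for rank 50 the males of high lhb have low values, between 3.73 and 13.6 CPM at 134 dpf.

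In males the median rho of the lhb-tracking genes was higher with 3 other gonadotrope genes, nr5a1b, cga and fshb, than with lhb, and lower with gnrhr2. It was 0.55 with nr5a1b, 0.48 with cga, 0.45 with fshb, 0.44 with body length, 0.41 with age, 0.40 with the GFP cassette, 0.37 with lhb and 0.25 with gnrhr2 over the 16 males. Over all candidates it was 0.01 with nr5a1b, 0.06 with cga, 0.03 with fshb and 0.03 with lhb. For 73 of the lhb-tracking genes rho with nr5a1b exceeded that with lhb, which was not counted over all candidates. The mean of the genes had a rho of 0.88 with nr5a1b, 0.85 with cga, 0.85 with smtla (the gene of somatolactin), 0.79 with body length, 0.76 with lhb, 0.75 with pomca and 0.75 with crhbp. Its rho was 0.08 with CD74 and 0.01 with the RNA integrity number, the measures that moved with it in females. With the number of genes detected its rho was 0.62, with the share of counts in hormone genes 0.40, with the library total −0.20 and with hbbe2 −0.51. The part of these measures in males was not tested. The RNA integrity number was 7.1 in medaka140 (134 dpf) and 9.3 to 10 in all other males, against 6.8 to 10 in the females. The values of rho with it in the 2 sexes thus rest on unlike ranges. The CD74 level in males was between 256 and 1137 CPM apart from 1 male of 70 dpf at 6436 CPM.

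The males of 134 dpf were then compared with those of 38 dpf, in a fit of all 4 ages. At an adjusted p under 0.05 (edgeR), 7 lhb-tracking genes rose and 0 fell, where 206 of 19502 genes rose (1.06%) and 250 fell (1.28%). They were ranks 2, 3, 13, 25, 28, 29 and 99, with log2 fold changes from 1.31 to 2.23. The median log2 fold change was 0.33 over the 100 genes, with a range from −0.89 to 2.38, and −0.01 over all genes. Of the 100, 84 were above 0, against 49.3% of all genes. At an unadjusted p under 0.05, 18 lhb-tracking genes were higher and 0 lower, against 2537 and 2649 of all genes. In 27 lhb-tracking genes every male of 134 dpf lay above every male of 38 dpf in CPM, as it did in 12.9% of all genes tested.

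Rank 29 showed the largest difference among those that passed. It had 72.0, 55.1, 34.5 and 36.8 CPM in the males of 134 dpf and 8.07, 6.76, 14.8 and 10.9 CPM in those of 38 dpf, and the groups did not overlap. Its log2 fold change was 2.23 (SE 0.38, adjusted p = 0.0225, edgeR). Rank 28 had 65.7, 55.2, 64.6 and 68.3 CPM at 134 dpf, against 18.6, 11.9, 33.6 and 16.8 CPM at 38 dpf, a log2 fold change of 1.56 (SE 0.29, adjusted p = 0.0266, edgeR). Rank 99 had 35.6, 25.1, 19.5 and 19.7 CPM at 134 dpf, against 6.26, 4.75, 8.48 and 8.17 CPM at 38 dpf, a log2 fold change of 1.77 (SE 0.38, adjusted p = 0.0354, edgeR). These 3 genes had the smallest adjusted p of the 7, and none of their groups overlapped.

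The other 4 that rose had adjusted p from 0.0384 to 0.0448. Rank 13 had 54.1, 72.4, 69.1 and 71.8 CPM at 134 dpf, against 20.6, 6.90, 35.2 and 22.1 CPM at 38 dpf. Rank 25 had 34.2, 41.8, 29.4 and 28.6 CPM at 134 dpf, against 14.5, 8.63, 13.1 and 13.7 CPM at 38 dpf. In both the groups lay apart. Rank 3 had 180, 300, 298 and 296 CPM at 134 dpf, against 105, 154, 104 and 46.0 CPM at 38 dpf, also without overlap. ENSORLG00000006155 (rank 2), with the values given for the slope, had a log2 fold change of 1.90 (SE 0.44, adjusted p = 0.0406, edgeR). ENSORLG00000016288 (rank 1) had the largest estimate of all 100, 2.38 (SE 0.61), and did not pass (adjusted p = 0.051), although its groups did not overlap either. It passed when just the 2 ages were fitted (adjusted p = 0.0119, edgeR), in DESeq2 (adjusted p = 0.000848), and in edgeR without medaka132 (57 dpf) or without medaka133, medaka134 or medaka135 (70 dpf), with adjusted p from 0.0223 to 0.141 over the 16 fits that left out 1 male.

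No lhb-tracking gene passed the test as lower at 134 dpf, while 16 had an estimate below 0. The lowest estimates belonged to ENSORLG00000002804 and ENSORLG00000002818. ENSORLG00000002804 (rank 50) had 13.6, 9.77, 3.73 and 4.14 CPM at 134 dpf, against 5.15, 37.5, 15.3 and 5.23 CPM at 38 dpf, and the groups overlapped (log2 fold change −0.89, SE 0.65, adjusted p = 0.394, edgeR). ENSORLG00000002818 (rank 42) had values from 9.07 to 10.1 CPM at 134 dpf and from 3.74 to 20.5 CPM at 38 dpf, with a log2 fold change of −0.48 (SE 0.46, adjusted p = 0.534, edgeR).

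Of the gonadotrope genes in the same fit, lhb rose with a log2 fold change of 2.82 (SE 0.67, adjusted p = 0.0457), fshb with 2.35 (adjusted p = 0.0353) and the GFP cassette with 2.39 (adjusted p = 0.0444, edgeR in each case). The estimates were 1.22 for cga (adjusted p = 0.158), 0.86 for nr5a1b (adjusted p = 0.226) and −0.18 for gnrhr2 (adjusted p = 0.848, edgeR), and these did not pass. Over the 16 fits that left out 1 male, lhb kept its call in 7 (adjusted p from 0.0227 to 0.126), fshb in 10 (0.015 to 0.1) and ENSORLG00000006155 in 8 (0.0215 to 0.112, edgeR). Each of the 3 lost it without medaka125, medaka126 or any of the 4 males of 134 dpf, lhb and ENSORLG00000006155 also without medaka127, lhb without medaka129 or medaka136, and ENSORLG00000006155 without medaka131.

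**Figure D5:**
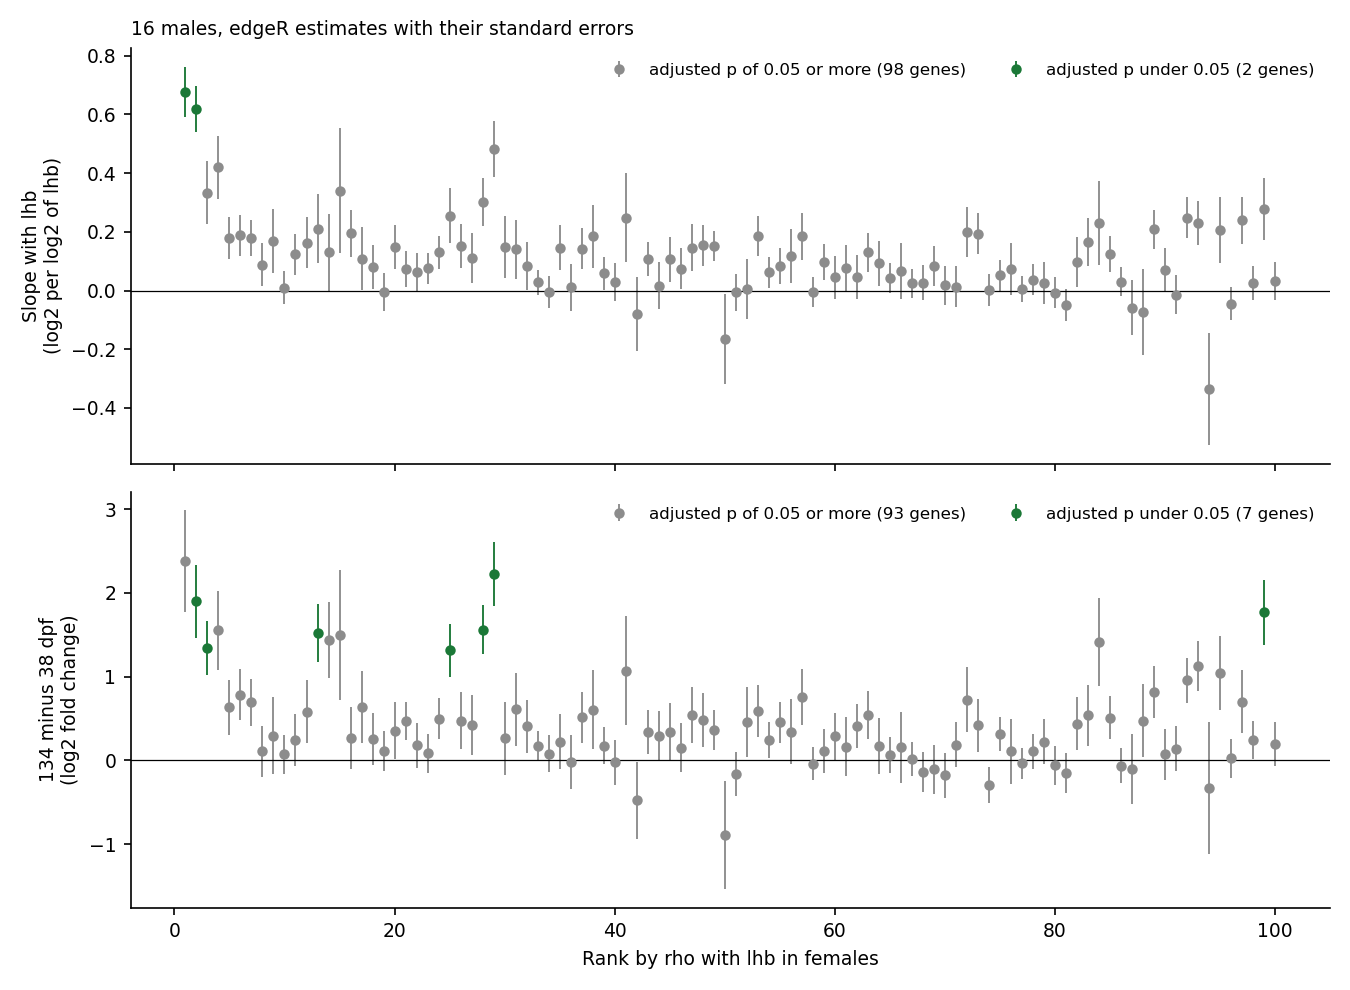
Estimates for each lhb-tracking gene in the 16 males, by its rank in females, with bars of 1 standard error. The upper panel gives the slope with lhb and the lower panel the log2 fold change of 134 against 38 dpf. Green points passed an adjusted p of 0.05 in edgeR (2 genes above and 7 genes below), and most of the other points lie above the line at 0.

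The count of 7 depended on single fish and on covariates. It was 0 without medaka125 or medaka126 (38 dpf) or medaka138 or medaka139 (134 dpf), 1 without medaka140 and 2 without medaka137 (both 134 dpf), and 13 without medaka135 (70 dpf), and it lay between 5 and 9 without any of the others. The count of all genes called changed as well. Without medaka125, medaka126, medaka138 or medaka139 between 0 and 3 genes rose and between 0 and 18 fell in all, without medaka140 4 rose and 7 fell, and without medaka137 69 rose and 105 fell. Without medaka135 928 rose and 942 fell, and without any of the others between 90 and 443 rose and up to 523 fell. The count of lhb-tracking genes was 1 with the RNA integrity number as a covariate, where 6 genes rose and 21 fell in all. That number was lowest in medaka140 among the males, at 7.1. The count was also 1 with library totals in place of TMM scaling, where 4 rose and 4 fell. Body length was 22 to 28 mm in the males of 134 dpf and 12 to 12.5 mm in those of 38 dpf, so that size and age could hardly be told apart, and with body length as a covariate no gene passed in edgeR (at an unadjusted p under 0.05, 0 lhb-tracking genes were higher or lower, and of all genes 56 were higher and 170 lower). The split of all genes called also moved with the scaling, with 160 risen and 120 fallen under the RLE factors and 182 and 141 when the 8 hormone genes were left out, while 7 lhb-tracking genes rose in both. DESeq2 called 14 lhb-tracking genes, all higher at 134 dpf, among 1694 risen (8.69%) and 1007 fallen genes.

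Between successive ages of the males no gene passed in edgeR (0% for 57 against 38, 70 against 57 and 134 against 70 dpf). At an unadjusted p under 0.05, 7, 6 and 7 lhb-tracking genes were higher and 0, 1 and 1 lower in these 3 comparisons, against 993, 785 and 1899 higher and 986, 662 and 1877 lower of all genes. The median log2 fold change of the lhb-tracking genes was 0.30 for 57 against 38 dpf, with 88 of 100 above 0 (51.6% of all genes). For 70 against 57 dpf it was 0.04, with 55 above 0 (48.3% of all genes). For 134 against 70 dpf it was −0.00076, with 50 above and 50 below 0 (47.6% of all genes above). The lhb medians were 351, 548, 790 and 3134 CPM at 38, 57, 70 and 134 dpf. The largest step of lhb thus lay between 70 and 134 dpf, where the 100 genes as a set were not shifted. DESeq2 called 5 lhb-tracking genes for 134 against 70 dpf, all higher, where it called 764 genes higher (3.92%) and 345 lower, and 0 in the other 2 comparisons, where it called 38 and 2 genes higher and 21 and 3 lower.

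Females and males of like age are given side by side without a test, as the female values were used in the choice. The lhb level of the 6 females of 131–179 dpf was 2639, 4229 and 17429 CPM at the lowest, median and highest, and that of the males of 134 dpf lay between 2833 and 3987 CPM with a median of 3134 CPM. ENSORLG00000016288 (rank 1) had 352 to 1084 CPM (median 620) in these females and 57.4 to 142 CPM (median 105) in these males, and the sexes did not overlap. ENSORLG00000006155 (rank 2) had 34.1 to 126.8 CPM (median 77.5) in the females and 54.2 to 86.5 CPM (median 78.6) in the males, and the range of the males lay within that of the females.

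The difference of medians between these females and males was above 0 for 94 of the 100 genes, with a median of 0.54 on the log2(CPM + 1) scale, against 0.28 over all candidates, of which 81.9% were above 0. It was greatest for ENSORLG00000002804 (rank 50), at 2.63, where the females lay between 21.8 and 81.7 CPM and the males between 3.73 and 13.6 CPM, followed by rank 15 with 2.63 and rank 1 with 2.56. In 32 of the 100 genes every female of 131–179 dpf lay above every male of 134 dpf, as in 5.21% of all candidates. These CPM were scaled to library totals alone. The TMM factors over all libraries were 0.95 to 1.29 in these females and 0.75 to 1.09 in these males, and were not applied to these values. Since they were mostly higher in the females, applying them would lower the female values relative to the male ones for all genes. How far the differences and counts above would shrink was not examined. In juveniles, the median difference between females of 37–39 dpf and males of 38 dpf was 0.08 (0.08 over all candidates), and 1 of the 100 genes had all females above all males, as 4.21% of the candidates did.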

How the data were processed

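The authors dissected single pituitaries, made cDNA with the Smart-SEQ HT kit and libraries with the Nextera XT kit, aligned the reads to a medaka reference genome with adjusted gene models, and deposited whole-number counts per gene that were not normalized. STAR 2.7.6a, HTSeq 0.11.2 and SAMtools 1.10 are listed in the submitters' processing notes. The paper names the intersection-nonempty mode for its counting of single-cell alignments, and whether it was also used for these libraries is not explicit. The strand setting is not given in the sources used here, and reads of antisense genes cannot be separated in these counts. Each fish is a separate animal and 1 replicate, grouped by the sex and age of its label (for 3 of the 4 males labelled 134 dpf the paper's methods give a lower age range). Total counts per library ranged from 2424546 to 9348785, and 459 of 24364 entries had no count in any library.

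CPM were computed over all entries. The lhb-tracking genes were selected as given above, after leaving out the 7 markers, 13 genes with gene models adjusted by the authors and 4 other genes. The genes, lists, tests and alternatives were chosen with earlier results of these data known. Males were tested by the robust quasi-likelihood method of edgeR 4.0.16 (R 4.3.3) after filterByExpr and TMM scaling, with p-values adjusted by Benjamini-Hochberg over all genes tested and a threshold of 0.05. The covariate was log2 lhb, or the fit had 4 age groups with the contrasts 134 against 38 (main) and between successive ages. The standard error was derived from the F statistic. The alternatives used DESeq2 1.42.0, other scalings, no filter, covariates, a permutation test and each fish left out in turn. Other values used Python 3.11.15, numpy 2.4.6, scipy 1.17.1 and pandas 2.3.3, and figures matplotlib 3.10.9. The slope and the 134 against 38 dpf fits were tested on simulated counts, the other fits were not. Of 100 genes changed 2-fold and 100 changed 4-fold, the 134 against 38 dpf fit recovered 10 and 78. Of its 90 calls 2 were false. The slope fit recovered 3 and 50, with the folds set over the range of lhb, and 6 of its 59 calls were false (10.2%). For both fits the simulated spread was that within age groups. Both fits thus missed most 2-fold changes.

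Named genes were to be the highest by rho and the largest and most significant changes in males, and the genes that the paper pairs with identifiers. The reference table of symbols matched 0 Ensembl identifiers, so 14 gene lists written by symbol could not be used, the genes without a name are given by rank, and no sequence is shown.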

Additional observations from a re-analysis of the deposited data

Results flagged for a closer look

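Within groups of 4 to 10 fish, 6 of 44 sets of values examined held 1 fish that stood apart from the rest by the size of its gap to the nearest other fish. Chance alone sets apart about 1 in 20 such sets where values are normally distributed, which was not examined for these CPM. The number of 6 can therefore not be set against chance. All 6 were females, in groups of 8 to 10 fish, whereas each male group had 4 fish, so that the sexes cannot be compared here. No explanation was tested.

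The mean log2(CPM + 1) of the lhb-tracking genes was 4.85 in medaka7 (79 dpf), against 5.99 to 6.63 in the other 9 females of 79–92 dpf. The lhb level of medaka28 (59 dpf) was 726 CPM, against 77.3 to 403 CPM in the others of 53–59 dpf, while its mean of the genes, 6.02, lay within the range of its group.

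ENSORLG00000016288 was at 367 CPM in medaka54 (74 dpf), against 16.5 to 184 CPM in the others of 64–74 dpf. This fish also had the highest mean of the genes in its group, 6.53, and an lhb level of 1783 CPM. ENSORLG00000006155 stood apart in 3 fish. It was at 36.7 CPM in medaka96 (45 dpf), against 6.27 to 19.9 CPM in the others of 44–49 dpf, at 37.0 CPM in medaka99 (53 dpf), against 7.95 to 21.1 CPM in the others of 53–59 dpf, and at 76.7 CPM in medaka18 (87 dpf), against 2.78 to 41.9 CPM in the others of 79–92 dpf. medaka96 had 704 CPM and medaka18 had 4748 CPM of lhb, whereas medaka99 had 255 CPM, the median of its group.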

How the results depend on the processing

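The 2 lhb-tracking genes with a slope on lhb in males were called in every leave-one-out fit (2 to 2 genes), under the other scalings and filters, and with the RNA integrity number as a covariate, but 0 were called with age group as a further term, and DESeq2 called 7. The 7 genes higher in males of 134 dpf than of 38 dpf became 1 with library totals, 1 with the RNA integrity number as a covariate, 0 with body length as a covariate, 14 in DESeq2, and 0 to 13 when 1 fish was left out, and the cause was not tested. Of all genes 206 rose in the fit with 7, 4 with library totals, 6 with the RNA integrity number, 0 with body length, 1694 in DESeq2, and 0 to 928 when 1 fish was left out. The median of the 100 genes fell to −0.0075 with body length as a covariate, and ENSORLG00000006155 to −0.68 (adjusted p = 1, edgeR). Without both medaka135 and medaka140, an alternative chosen after seeing the data, ENSORLG00000016288 passed (adjusted p = 0.0496, edgeR). For 134 against 70 dpf, where no gene passed in edgeR and 3776 had an unadjusted p under 0.05, 5 lhb-tracking genes passed in DESeq2, among 764 higher and 345 lower of all genes. Some estimates that had not passed changed sign. For gnrhr2 the difference between 134 and 38 dpf was 0.029 with library totals, 0.053 with body length and between −0.52 and 0.26 with 1 fish left out, and its slope between −0.0063 and 0.11 with 1 fish left out. The slope of ENSORLG00000002804 was 0.044 with the age term. That of ENSORLG00000002818 was 0.18 with the age term and between −0.14 and 0.038 with 1 fish left out. Of the 100 genes, 60 were kept with ranks relative to the age group mean, and 72 with TMM-scaled CPM. No paired analysis was possible because each fish has a number of its own.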
